A study of Mus musculus with 15 samples.

Results

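The genes of the translation initiation and elongation factors were followed in mouse colon across 3 *Tert* genotypes, with and without colitis. Members were all rows of the deposited log2 CPM table whose symbol starts with Eif or Eef followed by a digit, except *Eif2ak2*, *Eif2ak3*, *Eif2s3x* and *Eif2s3y*. Of 67 matching symbols, 4 were left out in this way and 63 remained, of 17531 genes in that table. The annotation gave 61 of the 63 as protein-coding and 2 as processed pseudogenes. All 63 passed the filter on low counts and were among the 17477 genes tested.

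Colitis was induced with dextran sulfate sodium (DSS), a detergent-like polymer that injures the colon lining. There were 6 groups: KO mice (Tert-/-, a knockout of the telomerase reverse transcriptase) given DSS, VAA mice (an enzymatically inactive Tert allele) given DSS, WT mice (Tert+/+) given DSS, and untreated KO, VAA and WT mice. DSS mice drank 3% DSS over 4 days and plain water over a further 4 days, and the tissue was collected on day 8. The mice were 8 to 12 weeks old. Each DSS group held 3 libraries and each untreated group 2, made from total RNA of whole colon tissue. The labels do not say that replicates came from separate animals, so p-values measure the spread between libraries, which may in part be technical.

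Translation initiation starts when eIF2, loaded with GTP and the initiator tRNA, joins the small ribosomal subunit together with eIF1, eIF1A, eIF3 and eIF5. The complex is brought to the mRNA cap by eIF4F, made of the cap-binding protein eIF4E, the scaffold eIF4G and the helicase eIF4A. Control acts at a few points: the 4E-BPs hold eIF4E away from eIF4G, phosphorylation of eIF2 alpha blocks its recycling by eIF2B, and the kinase eEF2K slows elongation by phosphorylating eEF2. The colon epithelium renews itself continuously from dividing crypt cells, which make much new protein.

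The promoters of the members were searched for the E-box CACGTG, a hexamer bound by MYC and related factors. The hexamer reads the same on both strands and was sought in the 250 bases before each RefSeq start (GRCm38.p6). It was found for 11 of the 46 members with a sequence there (23.9%), against 1854 of 27025 genes (6.86%). Those 27025 were all genes with a sequence there, tested here or not. Genes of like abundance were not set beside the members, so the difference is not shown to be particular to them. The 11 members were *Eef2*, *Eef2k*, *Eif1b*, *Eif3f*, *Eif3k*, *Eif4a1*, *Eif4e*, *Eif4g1*, *Eif4h*, *Eif5a* and *Eif5a2*. Shown are 3 of them that the results below describe at length, with the E-box in capitals.
Eif4a1, GRCm38.p6 chr11:69672424-69672673, minus strand: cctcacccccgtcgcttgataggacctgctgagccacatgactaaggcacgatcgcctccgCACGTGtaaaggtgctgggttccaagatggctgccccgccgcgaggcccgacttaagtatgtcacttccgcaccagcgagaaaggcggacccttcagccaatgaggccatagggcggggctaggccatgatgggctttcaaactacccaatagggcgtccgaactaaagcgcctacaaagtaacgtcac
Eif4g1, GRCm38.p6 chr16:20672477-20672726, plus strand: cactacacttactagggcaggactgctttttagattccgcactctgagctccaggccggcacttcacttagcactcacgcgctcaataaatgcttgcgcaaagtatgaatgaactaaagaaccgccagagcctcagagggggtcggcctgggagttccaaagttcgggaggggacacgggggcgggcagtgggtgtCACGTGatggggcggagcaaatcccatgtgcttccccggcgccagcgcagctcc
Eef2k, GRCm38.p6 chr7:120842581-120842830, plus strand: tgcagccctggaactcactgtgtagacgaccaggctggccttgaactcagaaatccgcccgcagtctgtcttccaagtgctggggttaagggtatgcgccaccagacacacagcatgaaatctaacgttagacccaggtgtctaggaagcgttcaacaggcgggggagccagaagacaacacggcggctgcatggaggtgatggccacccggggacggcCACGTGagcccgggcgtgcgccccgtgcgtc
The first base of the E-box lay at -189 from the start in *Eif4a1*, at -54 in *Eif4g1* and at -31 in *Eef2k*. In GENCODE M21 (GRCm38), *Eif4g1* starts at chr16:20668313 and *Eif4e* at chr3:138526179, so the stretches shown for both lie inside the annotated genes. *Eif4e* held the hexamer at 2 places, at -228 and -64, shown with 12 bases on either side.
Eif4e at -228, GRCm38.p6 chr3:138527028-138527057, plus strand: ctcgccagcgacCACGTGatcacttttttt
Eif4e at -64, GRCm38.p6 chr3:138527192-138527221, plus strand: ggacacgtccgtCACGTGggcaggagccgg
Of the 11 members with the hexamer, *Eif4a1*, *Eif4e*, *Eif4g1* and *Eif5a* rose in WT colitis, *Eef2k* fell and 6 were not called. The share that rose was 36.4%, against 16 of the 35 members with a sequence there and no hexamer (45.7%). A match is a description of the letters and does not show that a factor binds there.

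Library totals ran from 10561247 to 17541584 counts, and KO libraries held 0 or 1 *Tert* count, against 7 to 29 in VAA and 23 to 40 in WT libraries. Epithelial markers, which check the labelled tissue, summed to between 9211 and 15283 CPM in every library, where CPM is a count scaled to the library total and not corrected for transcript length. They were highest in KO DSS libraries, at 12870 to 15283 CPM. The range was 9229 to 11334 CPM in VAA DSS and 10152 to 10813 CPM in WT DSS libraries, against 9211 to 11472 CPM untreated. Single markers of this sum moved apart in VAA and WT DSS libraries. *Epcam* had 757 to 934 CPM there, against 961 to 1240 untreated, and *Cdh1* 897 to 1111, against 1296 to 1726. *Krt20* had 505 to 1012 CPM, against 300 to 472 untreated, and *Cldn7* 415 to 516, against 327 to 378. In these bulk samples, fewer cells of a type and less RNA per cell cannot be told apart. The summed smooth muscle markers were 617 to 2580 CPM in DSS libraries, against 4021 to 7164 CPM in untreated ones. Leukocyte markers summed to 247 to 522 CPM under DSS, against 82.9 to 219.8 CPM untreated. Cycling-cell markers summed to 1102 to 1516 CPM in KO DSS, 394 to 1628 CPM in VAA DSS and 1634 to 1990 CPM in WT DSS libraries, against 684 to 1037 CPM untreated. The part of these shifts in the member results below was not tested. VAA DSS replicate 3 stood apart: it was the shallowest library and the lowest of the 9 DSS libraries for 34 of the 63 members, had 394 CPM of cycling markers against 1374 and 1628 CPM in the other VAA DSS libraries, and 231 CPM of enteric neuron markers against 95.9 and 42.3 CPM.

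The translation factor genes are abundant transcripts. Their median mean log2 CPM was 6.03, against 3.99 over all genes tested, and 53 of 63 lay above 3.99. Together they took 1.19% to 1.31% of counts in KO DSS libraries, 1.10% to 1.39% in VAA DSS and 1.45% to 1.56% in WT DSS, against 1.16% to 1.27% in untreated KO, 1.14% to 1.34% in untreated VAA and 1.18% in both untreated WT libraries. Only the WT DSS libraries lay wholly above every untreated library. *Eef1a1* and *Eef2*, which encode the factors that deliver aminoacyl-tRNA and move the ribosome along, made up 37.7% to 46.0% of the members' counts, a share not corrected for transcript length.

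**Figure D1:**
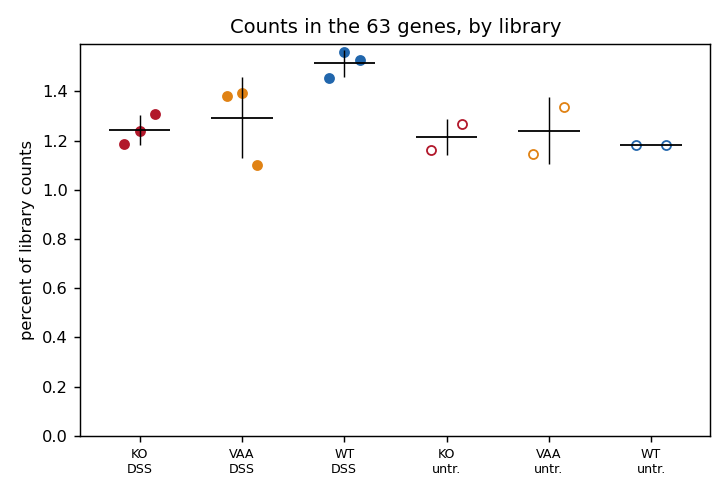
Percent of each library's counts (y axis) that fell on the 63 translation factor genes, by genotype and treatment (untr., untreated). Points are libraries, filled for DSS and open for untreated, and bars give the group mean and SD; the 3 WT DSS libraries lie between 1.45% and 1.56%, above all others.

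In WT colitis 26 of the 63 translation factor genes rose, among them the core subunits of eIF4F and 9 of 14 eIF3 genes, and 1, *Eef2k*, fell. Over all genes tested, 14.1% rose and 12.5% fell in that comparison (26.6% either way). The median log2 fold change of the members was 0.46 and 52 were positive, against a median of -0.01 over all genes. In VAA colitis 10 members rose and 3 fell, with a median of 0.17, where 10.9% of all genes rose and 9.54% fell (20.4% either way) and the median of all genes was 0.06. In KO colitis 2 members rose and none fell, where 5.59% of all genes rose and 5.06% fell (10.7% either way). Calls are at a Benjamini-Hochberg (BH) adjusted p under 0.05 over all genes by edgeR's quasi-likelihood test, and log2 fold changes carry the standard error (SE) of that fit. The KO median of 0.14 became -0.0011 with no scaling factor, a setting that also moved the median of all genes by a like amount. The 3 DSS groups did not overlap their untreated groups from above for 22 members in KO, 17 in VAA and 44 in WT, where such separation held for 24.1%, 21% and 31.9% of all genes. They lay wholly below for 2, 6 and 5 members, against 24%, 19.7% and 31.1% of all genes. Averaged over genotypes, 25 members rose and 2, *Eef2k* and *Eif4ebp3*, fell, where 22.5% of all genes rose and 20% fell (42.6% either way).

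These counts depended on single libraries. For this and all later alternative fits, the share of all genes called is not given. A shift in count is therefore not shown to be particular to the members. Without VAA DSS replicate 3, 9 members rose and 2 fell in KO, 22 rose in VAA and 38 rose in WT. Without an untreated WT library, 8 (replicate 1) or 10 (replicate 2) rose in WT, and 13 did without WT DSS replicate 2. In VAA, 4 or 6 rose without untreated replicate 1 or 2. In WT, the calls of *Eif4e3*, *Eif1a*, *Eif5a*, *Eif4a1*, *Eif3b*, *Eif4ebp1*, *Eif4g1*, *Eif6* and *Eef2k* held under all 23 alternatives run. All other WT calls were lost without untreated WT replicate 1, and all of these but those of *Eif2b2* and *Eif5b* also without untreated WT replicate 2. Without WT DSS replicate 2, the calls of *Eif2b4*, *Eif4a3*, *Eif5*, *Eef1g*, *Eef1e1* and all called eIF3 genes but *Eif3b* were lost. Those of *Eif3d*, *Eif3i*, *Eif3j1*, *Eif3m*, *Eif4a3*, *Eif5*, *Eef1g* and *Eef1e1* were lost without WT DSS replicate 1, and those of *Eif3g*, *Eif3i*, *Eif3m* and *Eif5* without replicate 3. *Eif3g* lost its WT call in 15 of the 23 alternatives, *Eif3i* in 13 and *Eif3m* in 9.

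In VAA, the calls of *Eif4e3*, *Eif4ebp1*, *Eif4ebp3* and *Eif6* held under all 23 alternatives. Every other VAA call was lost when only the VAA groups were fitted, the 1 alternative in which that of *Eif4g3* was lost. The VAA calls of *Eif1a*, *Eif5a*, *Eif4g1* and *Eif4h* were also lost without either untreated VAA library, those of *Eif2b2*, *Eif3b* and *Eif4a-ps4* without untreated replicate 1 and that of *Eef2k* without untreated replicate 2. Those of *Eif1a*, *Eif4g1* and *Eif4h* were lost without VAA DSS replicate 1, and that of *Eif1a* also without replicate 2. Members called in VAA without VAA DSS replicate 3, and not with it, included *Eif4e* (0.59 ± 0.11), *Eif4a1* (0.57 ± 0.14) and *Eif2s1* (0.78 ± 0.16), with edgeR BH-adjusted p of 0.0018, 0.0067 and 0.0028. By the Y-linked gene *Ddx3y*, 1 untreated WT and 1 untreated KO library were male and no DSS library was, so in WT and KO sex cannot be fully told apart from DSS. With sex as covariate, the WT calls of *Eef1e1*, *Eef1g*, *Eif3g*, *Eif3j1* and *Eif3m* were lost.

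**Figure D2:**
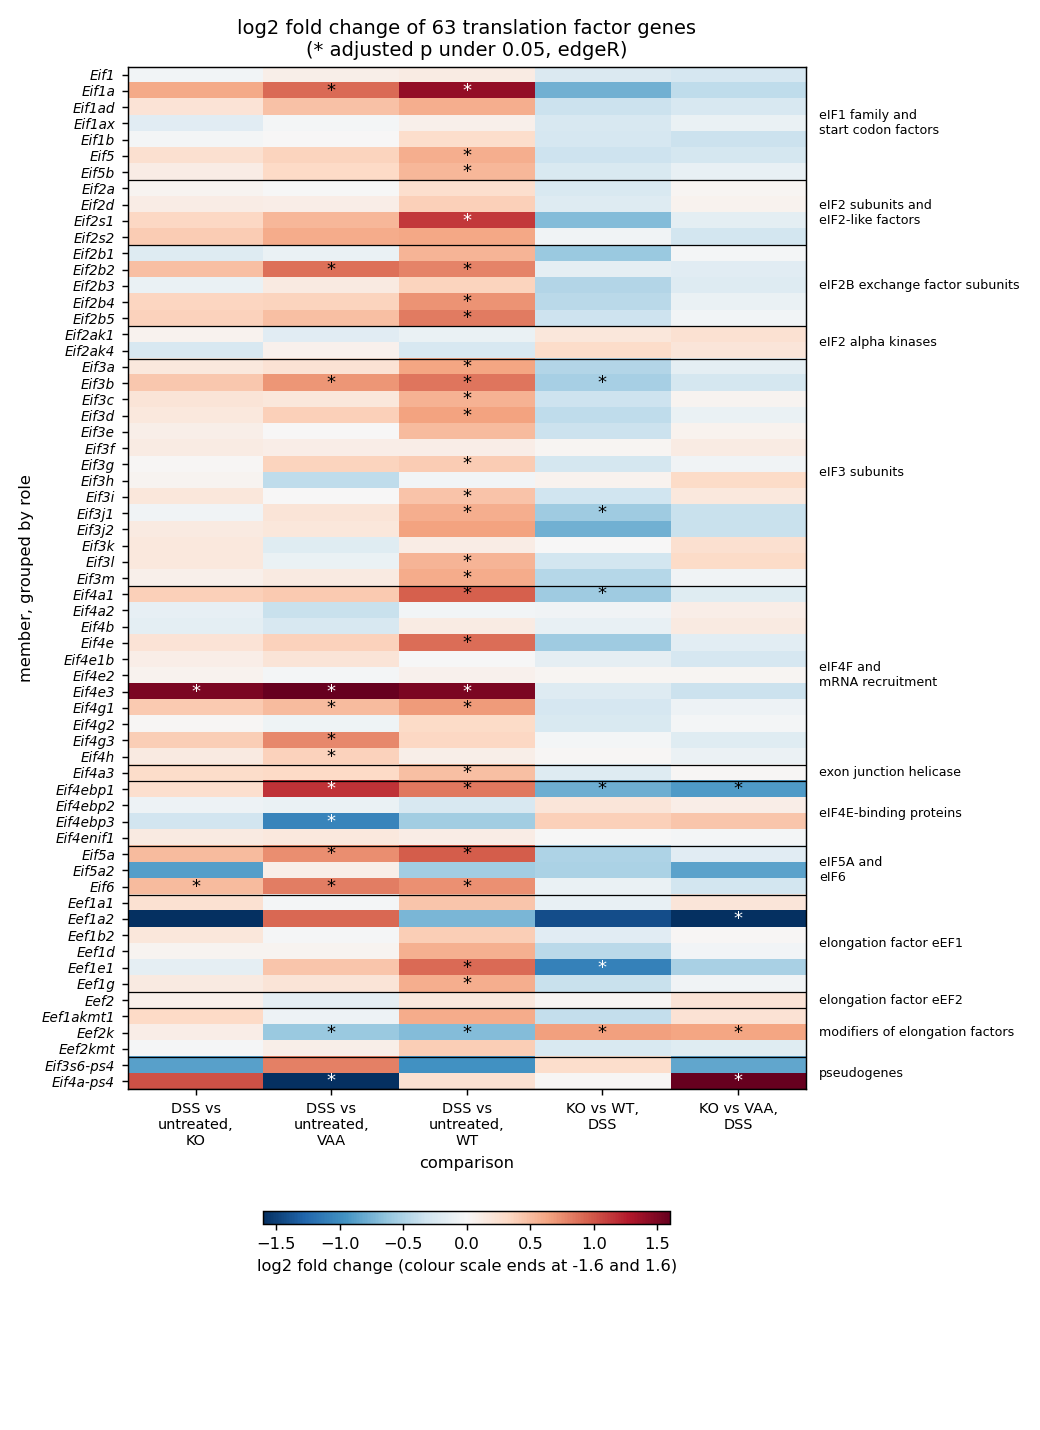
Log2 fold change (colour; the scale ends at -1.6 and 1.6) of each of the 63 members, in rows by role, for DSS against untreated in KO, VAA and WT and for KO against WT and against VAA under DSS. Stars mark an edgeR BH-adjusted p under 0.05; 26 members carry a star for a rise in WT, 10 in VAA and 2 in KO.

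Of the 11 genes of eIF4F and mRNA recruitment, 1 rose in KO, 4 in VAA and 4 in WT colitis, and none fell. *Eif4e*, the cap-binding subunit, had 57.9, 61.9 and 61.4 CPM in KO DSS, 76.8, 81.8 and 44.8 CPM in VAA DSS and 85, 98.8 and 84.0 CPM in WT DSS libraries, against 48.4 and 55.5, 50.2 and 54.8, and 48.3 and 48.1 CPM in untreated KO, VAA and WT. The WT DSS libraries lay above all others, the KO DSS libraries just above their untreated ones, and the VAA DSS libraries on both sides. *Eif4e* rose in WT by 0.89 ± 0.20 (log2, SE; edgeR BH-adjusted p = 0.0061), a call lost without either untreated WT library, and the log2 fold change was 0.37 ± 0.20 in VAA and 0.22 ± 0.20 in KO, neither called.

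*Eif4a1*, the main helicase of eIF4F, had 407, 426 and 430 CPM in KO DSS, 498, 573 and 369 CPM in VAA DSS and 609, 652 and 609 CPM in WT DSS, against 283 and 362, 327 and 392, and 332 and 311 CPM in untreated KO, VAA and WT. It rose in WT by 0.96 ± 0.17 (edgeR BH-adjusted p = 0.0016), and the difference was 0.42 ± 0.17 in VAA and 0.39 ± 0.17 in KO, neither called. Its paralogue *Eif4a2* averaged 337 ± 37.0 CPM in KO DSS, 312 ± 86.9 in VAA DSS and 351 ± 18.9 in WT DSS, against 369 ± 34.4, 400 ± 15.3 and 361 ± 29.2 CPM untreated (SD, n = 3 and 2). No call was made for *Eif4a2* in any genotype, and its WT groups overlapped.

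*Eif4g1*, the scaffold, had 443, 541 and 545 CPM in KO DSS, 613, 549 and 460 CPM in VAA DSS and 623, 653 and 572 CPM in WT DSS, against 370 to 394 CPM in the 6 untreated libraries. Every DSS library lay above every untreated one. *Eif4g1* rose in VAA by 0.50 ± 0.14 (edgeR BH-adjusted p = 0.020) and in WT by 0.68 ± 0.14 (0.0035), and was 0.42 ± 0.14 higher in KO without passing the threshold (0.071).

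Other scaffolds took a different order. *Eif4g3* rose in VAA by 0.77 ± 0.12 (edgeR BH-adjusted p = 0.00062; 0.061 with only the VAA groups fitted), to 154, 136 and 181 CPM in VAA DSS against 93.8 and 90.4 CPM in untreated VAA. Its log2 fold change was 0.39 ± 0.12 in KO and 0.34 ± 0.12 in WT, with adjusted p of 0.054 and 0.052 by the same edgeR test. *Eif4g2* (DAP5), a scaffold that lacks the eIF4E-binding part, was not called in any genotype, with log2 fold changes of 0.02 ± 0.16 in KO, -0.06 ± 0.16 in VAA and 0.31 ± 0.16 in WT. *Eif4h*, a helper of the helicase, rose in VAA by 0.37 ± 0.10 (edgeR BH-adjusted p = 0.021).

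*Eif4e3*, a cap-binding paralogue of eIF4E, (GRCm38 chr6:99625135-99666771, minus strand) rose in all 3 genotypes and by the largest log2 fold change among members called in each. It had 14.6, 18.4 and 13.5 CPM in KO DSS, 22.2, 19.5 and 17.1 CPM in VAA DSS and 21.7, 16.2 and 15.4 CPM in WT DSS, against 6.02 and 4.85, 6.51 and 5.54, and 6.08 and 6.46 CPM untreated. All 9 DSS libraries lay above all 6 untreated ones. The log2 fold changes were 1.51 ± 0.22 in KO, 1.70 ± 0.22 in VAA and 1.5 ± 0.22 in WT (edgeR BH-adjusted p = 0.0014, 0.00017 and 0.00039). The call held in each genotype under all 23 alternatives run. *Eif4e2* (4EHP), a cap-binding repressor, had log2 fold changes of 0.06 ± 0.10, -0.04 ± 0.10 and 0.07 ± 0.10 in KO, VAA and WT, with no call.

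**Figure D3:**
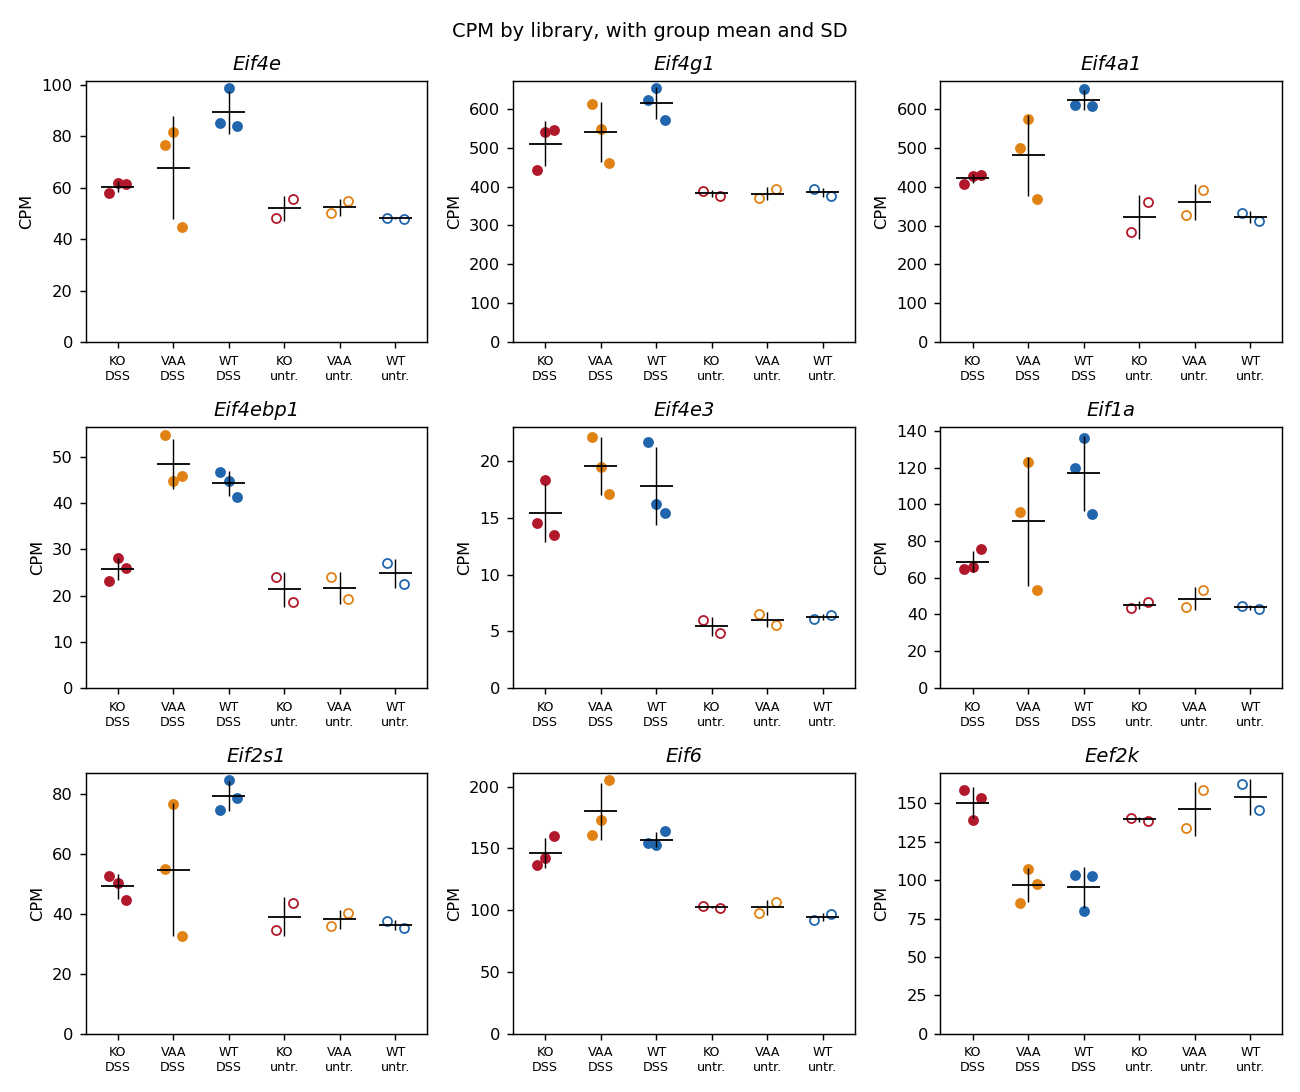
CPM per library (y axis, from 0) of 9 members in the 6 groups, filled points for DSS and open points for untreated (untr.), with the group mean and SD. *Eif4e3* and *Eif6* are higher in every DSS library of each genotype, *Eif4ebp1* is higher in VAA and WT DSS libraries only (41.4 to 54.7 CPM), and *Eef2k* is lower in VAA and WT DSS libraries and 139 to 159 CPM in KO DSS libraries.

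Among the 4 eIF4E-binding genes, *Eif4ebp1* and *Eif4ebp3* moved in opposite directions. *Eif4ebp1* (GRCm38 chr8:27260329-27276674, plus strand), which encodes the best known mTORC1-controlled repressor of eIF4E, had 23.2, 28 and 26 CPM in KO DSS, 54.7, 44.8 and 45.8 CPM in VAA DSS and 46.8, 44.7 and 41.4 CPM in WT DSS, against 23.9 and 18.7, 24.1 and 19.2, and 27.0 and 22.5 CPM in untreated KO, VAA and WT. The VAA and WT DSS libraries lay above all others, while the KO groups overlapped. It rose in VAA by 1.16 ± 0.17 and in WT by 0.84 ± 0.16 (edgeR BH-adjusted p = 0.00032 and 0.0026), and the KO difference was 0.27 ± 0.16 (0.31).

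*Eif4ebp3*, a paralogue with the same binding motif, had 34.7, 27.9 and 40.2 CPM in KO DSS, 29.6, 23.2 and 22.6 CPM in VAA DSS and 21.8, 23.5 and 33.7 CPM in WT DSS, against 37.3 and 47.3, 50.3 and 53.9, and 41.5 and 36.3 CPM untreated. It fell in VAA by 1.05 ± 0.21 on the log2 scale (edgeR BH-adjusted p = 0.0028), and the log2 fold change was -0.30 ± 0.21 in KO and -0.56 ± 0.21 in WT (0.38 and 0.061). Of its 31-base words, 66.4% occur also in another annotated gene, so its counts are uncertain. *Eif4ebp2* and *Eif4enif1*, an eIF4E carrier of mRNA granules, were not called, with log2 fold changes between -0.26 and 0.17 over the genotypes.

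Of the 7 genes of the eIF1 family and start codon factors, none rose in KO, 1 in VAA and 3 in WT. Without VAA DSS replicate 3, *Eif1ad*, *Eif5* and *Eif5b* were called higher in VAA as well (edgeR BH-adjusted p = 0.014, 0.018 and 0.013). *Eif1a*, which encodes an eIF1A that keeps the scanning complex open, had 65.0, 65.7 and 75.5 CPM in KO DSS, 96.0, 123 and 53.3 CPM in VAA DSS and 119, 136 and 94.9 CPM in WT DSS, against 43.0 to 53.1 CPM in the untreated libraries. Every DSS library was above every untreated one of its genotype, though VAA DSS replicate 3 only barely. It rose by 0.91 ± 0.26 in VAA and 1.41 ± 0.27 in WT (edgeR BH-adjusted p = 0.026 and 0.0023), and the KO log2 fold change was 0.61 ± 0.26 (0.15). *Eif5*, the GTPase activator of eIF2, and *Eif5b*, which joins the ribosomal subunits, rose in WT by 0.59 ± 0.19 and 0.53 ± 0.13 (edgeR BH-adjusted p = 0.033 and 0.0096). *Eif1* itself, the start codon gatekeeper, had log2 fold changes of -0.04 ± 0.11, 0.10 ± 0.11 and 0.13 ± 0.11 in KO, VAA and WT, not called. *Eif1ax*, of the same family, was not called in any genotype either.

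Among the 4 eIF2 and eIF2-like genes, only *Eif2s1*, the alpha subunit of eIF2 and the target of the stress kinases, was called within a genotype. Averaged over genotypes, *Eif2s2* rose as well, a call lost in 1 of 22 alternatives. *Eif2s1* had 52.7, 50.4 and 44.7 CPM in KO DSS, 55.0, 77.0 and 32.6 CPM in VAA DSS and 74.8, 84.7 and 78.9 CPM in WT DSS, against 34.6 and 43.8, 36.1 and 40.5, and 37.6 and 35.2 CPM untreated. The VAA libraries under DSS spanned the untreated range and beyond it on both sides. *Eif2s1* rose in WT by 1.13 ± 0.26 (edgeR BH-adjusted p = 0.0066), a call lost without either untreated WT library, and the log2 fold change was 0.53 ± 0.25 in VAA and 0.33 ± 0.25 in KO.

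For eIF2B, the exchange factor that reloads eIF2, 3 of 5 subunit genes rose in WT, 1 in VAA and none in KO. *Eif2b2* rose in VAA and WT by 0.89 ± 0.18 and 0.79 ± 0.18 (edgeR BH-adjusted p = 0.0034 and 0.0061), to 23.8, 25.9 and 28.6 CPM in VAA DSS and 24.6, 27.0 and 25.1 CPM in WT DSS, against 12.0 and 16.3, and 14.1 and 15.5 CPM untreated. *Eif2b4* and *Eif2b5* rose in WT by 0.72 ± 0.21 and 0.83 ± 0.19 (0.022 and 0.0069 by the same edgeR test). The 2 eIF2 alpha kinase genes among the members, *Eif2ak1* (HRI, heme-regulated) and *Eif2ak4* (GCN2, sensing amino acid shortage), had log2 fold changes between -0.26 and 0.07 and no call.

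The 14 genes of eIF3, the scaffold of the initiation complex, gave 9 rises in WT, 1 in VAA and none in KO. Those that rose in WT were *Eif3a*, *Eif3b*, *Eif3c*, *Eif3d*, *Eif3g*, *Eif3i*, *Eif3j1*, *Eif3l* and *Eif3m*. Their log2 fold changes ran from 0.40 ± 0.14 for *Eif3g* to 0.86 ± 0.17 for *Eif3b*, with edgeR BH-adjusted p between 0.0025 and 0.044. *Eif3b*, a core subunit, had 120, 154 and 150 CPM in KO DSS, 201, 171 and 143 CPM in VAA DSS and 209, 218 and 188 CPM in WT DSS, against 101 and 108, 91.0 and 120, and 115 and 111 CPM untreated. It was higher in every DSS library than in the untreated libraries of its genotype, and rose in VAA by 0.71 ± 0.17 (edgeR BH-adjusted p = 0.0084). The subunits *Eif3f*, *Eif3h* and *Eif3k* had WT log2 fold changes of 0.11, -0.04 and 0.12 and no call. *Eif3j1* and *Eif3j2* are near-identical copies: 94.9% of the 31-base words of *Eif3j2* occur in another gene and 53.6% of those of *Eif3j1*. Their sum averaged 51.9 ± 3.24 CPM in KO DSS, 66.2 ± 18.9 in VAA DSS and 81.0 ± 10.8 in WT DSS, against 51.6 ± 0.918, 57.7 ± 6.88 and 53.1 ± 4.23 CPM untreated (SD, n = 3 and 2).

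*Eif6* (GRCm38 chr2:155819832-155826925, minus strand), which keeps the large ribosomal subunit from joining too early, rose in every genotype. It had 137, 142 and 160 CPM in KO DSS, 161, 173 and 206 CPM in VAA DSS and 155, 153 and 164 CPM in WT DSS, against 103 and 102, 98.1 and 106, and 92.1 and 96.8 CPM untreated. All 9 DSS libraries were above all 6 untreated ones. The rises were 0.51 ± 0.12, 0.82 ± 0.12 and 0.74 ± 0.12 in KO, VAA and WT (edgeR BH-adjusted p = 0.018, 0.00042 and 0.00085), and the KO call was lost in 5 of 23 alternatives.

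*Eif5a*, the hypusine-bearing factor that relieves stalled ribosomes, had 222, 274 and 269 CPM in KO DSS, 349, 301 and 216 CPM in VAA DSS and 345, 399 and 334 CPM in WT DSS, against 162 and 196, 164 and 182, and 171 and 198 CPM untreated. It rose in VAA by 0.74 ± 0.18 and in WT by 0.96 ± 0.19 (edgeR BH-adjusted p = 0.012 and 0.0026), and was 0.51 ± 0.18 higher in KO (0.095). *Eif5a2*, its rarer paralogue, had 2.46 to 3.33 CPM in KO DSS, 3.43 to 6.91 in VAA DSS and 3.14 to 4.66 in WT DSS, against 4.07 to 6.46 CPM in the untreated libraries. Its log2 fold changes were -0.89 ± 0.31, 0.10 ± 0.31 and -0.56 ± 0.31 in KO, VAA and WT, none called. *Eif4a3*, the helicase of the exon junction complex, rose in WT by 0.48 ± 0.14 (edgeR BH-adjusted p = 0.021).

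Of the 6 genes grouped as eEF1, which include *Eef1e1* of the multi-synthetase complex, 2 rose in WT, and none in KO or VAA. *Eef1a1* had 3823, 3823 and 4549 CPM in KO DSS, 3556, 3892 and 3204 CPM in VAA DSS and 4220, 4570 and 4400 CPM in WT DSS, against 3067 and 3828, 3097 and 4161, and 3342 and 3142 CPM untreated. The WT groups did not overlap, but the log2 fold change of 0.44 ± 0.16 was not called (edgeR BH-adjusted p = 0.061), and it was 0.24 ± 0.16 in KO and -0.03 ± 0.16 in VAA. *Eef2*, the translocase, had log2 fold changes of 0.08 ± 0.17, -0.14 ± 0.17 and 0.17 ± 0.17 in KO, VAA and WT, not called. *Eef1g*, a subunit of the eEF1A exchange complex, and *Eef1e1* (AIMP3), a subunit of the multi-synthetase complex, rose in WT by 0.58 ± 0.19 and 0.91 ± 0.31 (0.034 and 0.043 by the same edgeR test). The *Eef1g* call was lost in 6 and the *Eef1e1* call in 12 of 23 alternatives.

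*Eef2k* (GRCm38 chr7:120842831-120907450, plus strand), the kinase that inactivates eEF2, was the 1 member that fell in WT. It had 159, 139 and 153 CPM in KO DSS, 85.4, 107 and 97.7 CPM in VAA DSS and 103, 80.1 and 103 CPM in WT DSS, against 141 and 138, 134 and 159, and 162 and 146 CPM in untreated KO, VAA and WT. All 6 VAA and WT DSS libraries were below all untreated libraries, and the 3 KO DSS libraries were among the untreated values. *Eef2k* fell by 0.60 ± 0.14 in VAA and by 0.69 ± 0.14 in WT on the log2 scale (edgeR BH-adjusted p = 0.0077 and 0.0030), and the KO log2 fold change was 0.11 ± 0.14 (0.68). The DSS effect in KO minus that in WT was 0.80 ± 0.20, not called by edgeR (BH-adjusted p = 0.26) and called by DESeq2 (0.79, BH-adjusted p = 0.049).

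KO and WT colons under DSS differed in 6 members: *Eef2k* was higher in KO, and *Eef1e1*, *Eif4ebp1*, *Eif3j1*, *Eif4a1* and *Eif3b* were lower. Over all genes, 3.21% were higher and 2.46% lower in KO (5.67% either way), and the members' median log2 fold change was -0.26, against -0.01 over all genes. The 3 KO libraries lay wholly below the 3 WT libraries for 38 of 63 members and wholly above for 2, where 19.5% and 16.4% of all genes did. The log2 fold change of *Eef2k* was 0.66 ± 0.13 (edgeR BH-adjusted p = 0.012), and that of *Eif4ebp1* -0.78 ± 0.14 (0.010). *Eef1e1*, which was not called in KO colitis, had 5.74, 7.23 and 6.39 CPM in KO DSS, against 13.6, 15.9 and 11.6 CPM in WT DSS. Its log2 fold change was -1.08 ± 0.27 (edgeR BH-adjusted p = 0.036). *Eif4a1*, *Eif3j1* and *Eif3b* stood at -0.57 ± 0.15, -0.57 ± 0.15 and -0.54 ± 0.14, with edgeR BH-adjusted p of 0.044, 0.0497 and 0.048.

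The *Eef2k* and *Eif4ebp1* calls were each lost in 2 of 23 alternatives, without WT DSS replicate 2 and without KO DSS replicate 1, which left no member called. *Eef1e1* lost its call in 7 alternatives, *Eif4a1* in 12, *Eif3b* in 13 and *Eif3j1* in 15. Without VAA DSS replicate 3, which is in neither group, 15 members were lower in KO (share of all genes in that fit not given). In the same contrast, 7 of 8 neutrophil markers were lower and 2 of 10 epithelial markers higher in KO. Cycling-cell markers had a median of -0.58 with none of 10 called. The part of these cells in the member differences was not tested.

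KO against VAA under DSS gave 4 called members, *Eef2k* and the pseudogene *Eif4a-ps4* higher and *Eif4ebp1* and *Eef1a2* lower. Over all genes, 6.01% were higher and 9.41% lower (15.4% either way). *Eef2k* was 0.64 ± 0.13 higher and *Eif4ebp1* 0.91 lower (-0.91 ± 0.14; edgeR BH-adjusted p = 0.0062 and 0.0019), and both calls held under all 23 alternatives. The KO DSS libraries serve in both genotype comparisons, so these values are not independent of those against WT. Without VAA DSS replicate 3, 9 members were lower in KO (share of all genes in that fit not given), namely *Eef1a2*, *Eef1e1*, *Eif1*, *Eif1a*, *Eif3j1*, *Eif3j2*, *Eif4e*, *Eif4ebp1* and *Eif5*. Of these, *Eif1a* stood at -0.67 ± 0.15 and *Eif4e* at -0.39 ± 0.10 (edgeR BH-adjusted p = 0.013 and 0.027). The KO libraries lay wholly above the VAA libraries for 7 members and wholly below for 9, where 13.7% and 14.6% of all genes did.

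*Eef1a2*, the eEF1A paralogue of neurons and muscle, had 0.853, 0.409 and 0.743 CPM in KO DSS and 3.97, 1.79 and 13.6 CPM in VAA DSS libraries, the highest value again in VAA DSS replicate 3. The log2 fold change was -3.24 ± 0.71 (edgeR BH-adjusted p = 0.0098), and -2.10 ± 0.55 (0.026) without that library, and the call was lost when these 2 groups alone were fitted. Enteric neuron markers moved alongside, with 8 of 9 lower in KO than in VAA and summed levels of 17.9 to 25.0 CPM in KO DSS against 42.3 to 231 CPM in VAA DSS. Their part in the *Eef1a2* difference was not tested.

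VAA against WT under DSS and both untreated genotype comparisons gave no called member. Under DSS, 14 members had an unadjusted p under 0.05 by edgeR (17 by DESeq2 and 20 by limma), and the median was -0.22. The unadjusted share over all genes is not given, so these counts are not read as a result about the members. At a BH-adjusted p under 0.05, edgeR called 0.00572% of all genes. DESeq2 called 1 member there, *Eif3l* (-0.62, BH-adjusted p = 0.048), named after its value was seen. Without VAA DSS replicate 2, 1 member was higher and 7 were lower in VAA by edgeR (share of all genes in that fit not given). The VAA libraries lay wholly above the WT libraries for 1 member and wholly below for 17, where 8.76% and 7.91% of all genes did. Untreated, no member had an unadjusted p under 0.05 in KO against WT by edgeR, DESeq2 or limma, and in VAA against WT none did by edgeR or DESeq2 and 1 by limma. No gene at all was called by edgeR in either untreated comparison (0%).

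Whether the response to DSS differed between genotypes was tested by interaction terms. edgeR called no member for KO minus WT or for VAA minus WT, where it called 0% of all genes, and limma called none either. DESeq2 called 1, *Eef2k*, for KO minus WT, with the values given above, and none for VAA minus WT. An unadjusted p under 0.05 was found for 10 and 5 members by edgeR (10 and 6 by DESeq2, 16 and 6 by limma). The unadjusted share over all genes is not given, and the 0% above is at the adjusted threshold. The unadjusted counts are therefore not read as a result about the members. Both terms share the WT libraries. The larger number of rises in WT is therefore not shown by edgeR's test on single genes to differ from the other genotypes.

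**Figure D4:**
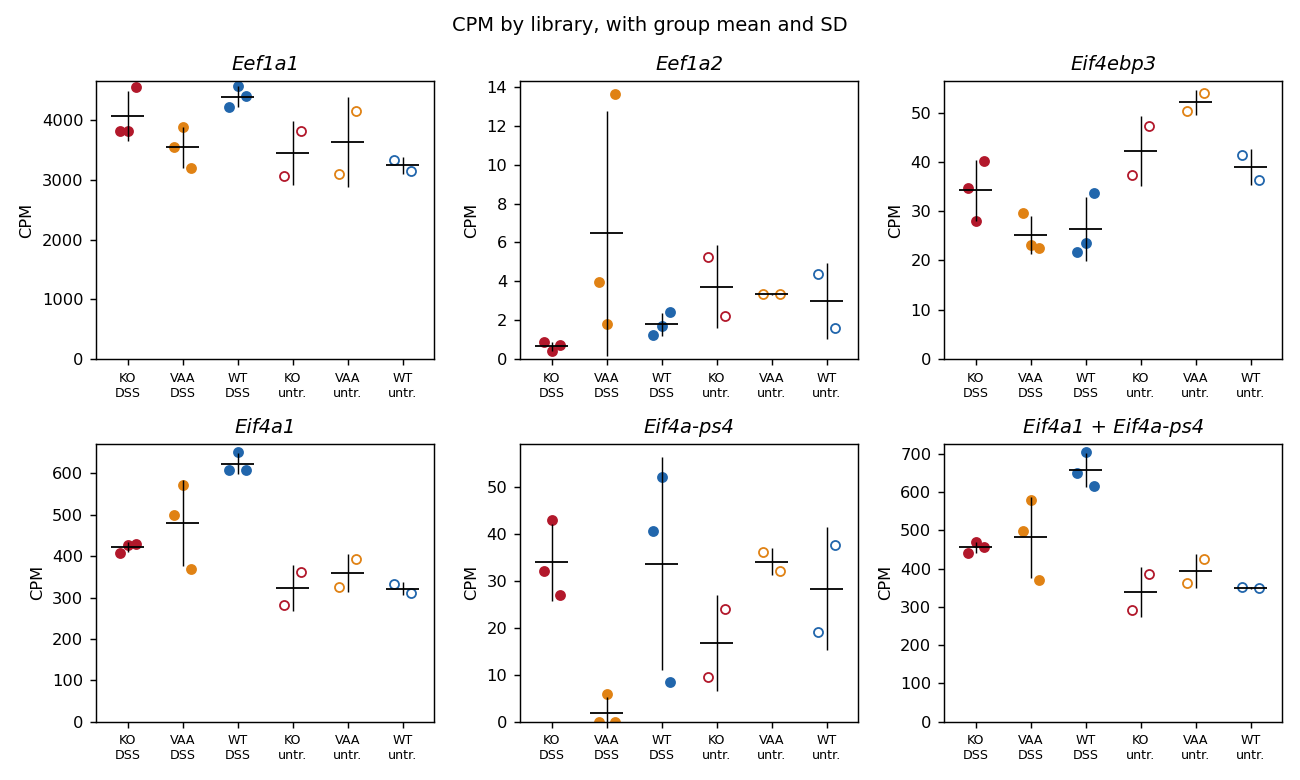
CPM per library (y axis, from 0) of *Eef1a1*, *Eef1a2*, *Eif4ebp3*, *Eif4a1*, the pseudogene *Eif4a-ps4* and the sum of the last 2, with filled points for DSS, open points for untreated (untr.) and bars for the group mean and SD. *Eif4a-ps4* is at 0 in 2 VAA DSS libraries, and the sum keeps the order of *Eif4a1*, with 617 to 705 CPM in WT DSS libraries.

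The counts of near-identical copies need care. *Eif4a-ps4* shares 97.4% of its 31-base words with *Eif4a1*, and had 32.1, 43.1 and 27.0 CPM in KO DSS, 0, 5.90 and 0 CPM in VAA DSS and 40.6, 52.2 and 8.44 CPM in WT DSS, against 9.57 and 24.0, 36.2 and 32.1, and 19.1 and 37.6 CPM untreated. edgeR called it higher in KO than in VAA under DSS and lower in VAA colitis, and both calls were lost when the 2 groups alone were fitted, the VAA colitis call also without untreated VAA replicate 1. Added to *Eif4a1*, the sum averaged 455 ± 15.1 CPM in KO DSS, 482 ± 106 in VAA DSS and 657 ± 44.3 in WT DSS, against 339 ± 66.0, 394 ± 43.5 and 350 ± 2.12 CPM untreated (SD, n = 3 and 2). The order of the 3 DSS groups for *Eif4a1* is the same with the pseudogene's counts added. In all, 27 members share over 10% of their words with another gene, and 15 have exons that overlap a gene on the opposite strand.

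Other genes of protein synthesis were read from fixed lists. For these lists, the shares over all genes were 5.59%, 10.9% and 14.1% for rises in KO, VAA and WT colitis. For falls they were 5.06%, 9.54% and 12.5%. A list of 22 genes held 20 cytosolic aminoacyl-tRNA synthetase genes, whose enzymes charge tRNAs with amino acids, and *Aimp1* and *Aimp2*, non-catalytic scaffolds of the multi-synthetase complex. Of the 20 synthetase genes, 2 rose in KO, 10 in VAA and 14 in WT colitis and none fell. *Aimp1* rose in WT, by 0.66 ± 0.15 (edgeR BH-adjusted p = 0.0067), and *Aimp2* was not called. The medians of all 22 were 0.33, 0.52 and 0.86 in KO, VAA and WT. *Wars*, the tryptophan enzyme, rose in each genotype, by 1.29 ± 0.22, 1.48 ± 0.22 and 1.55 ± 0.22 (edgeR BH-adjusted p = 0.0032, 0.00041 and 0.00033). Of 12 other initiation, termination and recycling genes, 1 rose in KO, 2 rose and 1 fell in VAA, and 8 rose in WT. *Pabpc1*, the poly(A)-binding protein that bridges to eIF4G, rose by 0.48 ± 0.14, 0.53 ± 0.14 and 0.71 ± 0.14 in KO, VAA and WT (0.044, 0.017 and 0.0030 by the same edgeR test). *Etf1*, which reads stop codons, rose in VAA and WT by 0.60 ± 0.17 and 0.98 ± 0.17 (0.025 and 0.0014). *Dhps* and *Dohh*, which make the hypusine of eIF5A, rose in WT by 0.59 ± 0.18 and 0.78 ± 0.20 (0.029 and 0.011) and were not called in KO or VAA.

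The integrated stress response is the programme that phosphorylated eIF2 alpha sets off through ATF4. Of 18 genes listed for it, 2 rose in KO, 13 in VAA and 11 in WT colitis, with median log2 fold changes of 0.47, 1.66 and 1.64. Under DSS, 5 were lower in KO than in WT and 8 lower in KO than in VAA, where 2.46% and 9.41% of all genes were. *Asns*, asparagine synthetase, rose by 1.20 ± 0.30, 2.44 ± 0.31 and 2.61 ± 0.31 in KO, VAA and WT (edgeR BH-adjusted p = 0.024, 0.00014 and 0.00011). *Slc7a11*, the cystine transporter, was 1.44 lower in KO than in WT under DSS (-1.44 ± 0.18; 0.0019) and differed by -1.45 ± 0.18 from VAA (0.00077). The summed level of the list was 635 to 652 CPM in KO DSS, 851 to 1380 in VAA DSS and 833 to 1231 in WT DSS libraries, against 472 to 522 CPM untreated. A large part of that sum was *Ppp1r15b*, an eIF2 alpha phosphatase subunit that is not itself an ATF4 target. It had 254 to 300 CPM in KO DSS, 245 to 334 in VAA DSS and 250 to 312 in WT DSS, against 174 to 237 untreated. Neutrophil markers moved in the same way as the summed list, with 41.5 to 47.8 CPM in KO DSS, 252 to 418 in VAA DSS and 224 to 286 in WT DSS. The part of neutrophils was not tested.

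Of 16 genes of mTORC1 and of the kinases that act on initiation factors, none was called in KO colitis, 1 rose and 2 fell in VAA, and 1 rose and 3 fell in WT. Over all genes, 10.7%, 20.4% and 26.6% were called either way in KO, VAA and WT. In each genotype the list was called no more often than all genes. *Deptor*, an mTOR inhibitor, fell by 0.61 ± 0.13 in VAA and 0.53 ± 0.13 in WT, and *Pdcd4*, an inhibitor of eIF4A, by 1.21 ± 0.29 and 1.03 ± 0.29 (edgeR BH-adjusted p = 0.0040, 0.0084, 0.0096 and 0.020). *Mknk2*, an eIF4E kinase, was higher in KO than in WT under DSS by 0.57 ± 0.14 (0.036) and than in VAA by 0.61 ± 0.14 (0.013). Of the 9 members known to have a 5′ terminal oligopyrimidine tract, the mRNA feature through which mTORC1 controls translation, 1 rose in WT (*Eef1g*) and none in KO or VAA, with medians of 0.10, -0.02 and 0.39 in KO, VAA and WT. RNA levels do not report that translational control.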

How the data were processed

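Total RNA of mouse colon was sequenced as 76-base paired ends, per the labels' protocols, in 15 libraries grouped by their labels. Estimated counts for each symbol were deposited, and the submitters' processing notes name kallisto 0.46 and mm10. Which transcript annotation was used is not stated. The estimated counts were whole numbers, so rounding changed 0 of them. The deposited log2 CPM were recomputed from the counts to within 0.018 with a prior count of 2. The files held 0 columns of other samples.

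Counts were filtered with filterByExpr over the 6 groups, scaled by TMM and tested in edgeR 4.0.16 (glmQLFit, glmQLFTest; R 4.3.3) with all 15 libraries in 1 fit (9 residual degrees of freedom). P-values were BH-adjusted over 17477 genes and called at 0.05, in 11 comparisons. CPM divide a count by the library total times its TMM factor and are not per length. Alternatives were RLE scaling, no scaling factor, no filter, DESeq2 1.42.0, limma 3.58.1 on the deposited log2 CPM, a replicate block, sex as covariate (2 libraries were male by *Ddx3y*, both untreated), fits of the compared groups alone, and each library left out. Scripts were tested on simulated data. No 2 replicates agreed within sampling noise (chi-square per degree of freedom 11.6 to 112).

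Genes were placed in GENCODE M21 (GRCm38), and 31-base words of its transcripts were compared between genes. The members and gene lists were chosen with earlier results of these data known. Named members were, per comparison, up to 8 called genes with the highest and 8 with the lowest log2 fold change at a mean log2 CPM of at least 2, the 2 most abundant of each role, paralogue sets, and up to 3 called genes by smallest p of other lists. A p-value misses small changes with groups of 2 and 3 libraries. Proteins were not used here.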

Additional observations from a re-analysis of the deposited data

How the results depend on the processing

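Replicate numbers gave no clear pairing: over 33 same-numbered pairs the correlation of deviations ran from -0.16 to 0.31, with 8 over 0.1, and 7 of 15 libraries lay closest to their own number. Differently numbered pairs were not set beside these, so the values cannot exclude pairing. With the replicate block, 30 members rose in WT, 31 rose and 4 fell over genotypes, 2 fell in WT and 1 fell in KO. With no scaling factor, 1 member rose and 2 fell in KO, 2 fell in WT, 5 fell over genotypes (against 2), 10 were lower in KO than in WT and 5 lower than in VAA under DSS. That setting moved the median of all genes to -0.14 in KO colitis, -0.12 in KO against WT, -0.11 in KO against VAA and -0.10 in the KO interaction, and the members' medians moved alike. With limma, 1 rose and 2 fell in KO, 2 fell in WT, 5 fell over genotypes, and 10 and 5 were lower in KO than in WT and VAA. DESeq2 gave 4 rises and 1 fall in KO, 12 lower in KO than in WT, 4 lower than in VAA, 1 lower in VAA than in WT and 1 higher KO interaction. Fitting the compared groups alone gave 3 rises and 1 fall in VAA, 2 falls in WT, 1 fall in KO, 20 lower in KO than in WT, and 1 higher and 1 lower in KO than in VAA; it was not run for the average. With sex as covariate 2 were lower in KO than in WT and 1 fell in KO, and with no filter 1 fell in KO. RLE scaling moved no count by over 1.5 times. The cause of these shifts was not tested, and the share of all genes called under each alternative is not given.

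Leaving out each library in turn gave 1 to 9 rises and 0 to 2 falls in KO, 4 to 22 and 2 to 4 in VAA, 8 to 38 and 1 to 2 in WT, and 20 to 39 and 2 to 4 over genotypes. Under DSS, KO against WT gave 0 to 1 higher and 0 to 15 lower, KO against VAA 2 to 4 and 2 to 9, and VAA against WT 0 to 1 and 0 to 7. For the named genes, 7338 values under alternatives kept their side of the threshold, 111 newly passed and 124 no longer passed. No value called in either fit reversed its direction. Values not called could change sign, as that of *Eef1a1* in VAA did without VAA DSS replicate 3. Groups of 2 and 3 libraries limit what could be called.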

Other observations

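The 2 eEF1A paralogues differed in spread: over the 15 libraries *Eef1a2* ran from 0.409 to 13.6 CPM and *Eef1a1* from 3067 to 4570 CPM. WT DSS replicate 2 was the highest of the 9 DSS libraries for 32 of 63 members, and VAA DSS replicate 3 the lowest for 34. Plasma cell markers summed to 282 to 350 CPM in KO DSS, 349 to 406 in VAA DSS and 339 to 413 in WT DSS libraries, against 478 to 524, 381 to 398 and 304 to 350 CPM in untreated KO, VAA and WT. Markers within that sum moved in opposite directions. *Jchain* had 17.3 to 42.1 CPM under DSS, against 50.5 to 179.7 untreated, and *Xbp1* 148 to 260, against 113 to 144. For *Sdc1*, *Mzb1* and *Derl3* the DSS and untreated ranges overlapped.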
